A study of Mus musculus with 12 samples.

Results

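The genes described are the semaphorins, plexins, neuropilins, ephrins and Eph receptors measured in mouse mesenchymal stem cells with and without the nuclease Dicer. They were taken by name from the 21881 genes of the table, which gave 53 members: 20 semaphorins of classes 3 to 7, 9 plexins, 2 neuropilins, 8 ephrins and 14 Eph receptors. The cells were immortalized clonal C57BL/6 lines of this stromal cell type, which occurs in adult marrow, grown in Alpha-MEM and either Dicer f/f, with intact floxed alleles, or Dicer -/-. WT_siCtrl denotes Dicer f/f cells given a nontargeting control siRNA, and KO_siCtrl denotes Dicer -/- cells given the same siRNA. KO_let-7g cells were Dicer -/- and received a synthetic let-7g duplex, and KO_siNr6a1 cells were Dicer -/- and received an siRNA against Nr6a1. Every group was transfected at 20 nM and collected after 48 h, with 3 libraries per group. The number of clones behind each genotype is not given in the labels, so genotype and clone cannot be told apart. The labels do not say whether the libraries of a group came from separate cultures, and the p-values measure the spread between libraries, which may be technical.

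Semaphorins are secreted or membrane-bound ligands that were first known for steering growing axons. Their main receptors are the plexins, whose cytoplasmic part acts on small GTPases, and the secreted class 3 semaphorins mostly reach plexins through the neuropilins. Ephrins are ligands held at the cell surface, by a lipid anchor in the A subclass and by a transmembrane segment in the B subclass, and Eph receptors are receptor tyrosine kinases that bind ephrins on neighbouring cells. Both systems change cell shape, adhesion and sorting at contacts, and in the skeleton they are known for exchanges between osteoblasts, osteoclasts and vessels.

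Levels are FPKM (fragments scaled to transcript length and library total), given as mean ± SD over 3 libraries or library by library in the order of replicates 0, 1 and 2. A fold change is a difference of log2(FPKM + 1) with its standard error (SE), which understates changes of genes with low FPKM, and an adjusted p under 0.05 was required to call a gene. Total reads are not known, but the relative depth of the libraries could be read from the lowest values and was 1 to 1.82, highest in KO_let-7g (1.34 to 1.82). Nr6a1 was highest in KO_siCtrl (11.7 ± 1.32), lower in KO_let-7g (4.22 ± 1.04) and KO_siNr6a1 (3.68 ± 0.539) and lowest in WT_siCtrl (1.12 ± 0.158), and Dicer1 was higher in WT_siCtrl (6.58 ± 1.45) than in the KO groups (means of 2.7 to 3.86). All 11 mesenchymal markers examined, among them Cd44, Vcam1 and Pdgfrb, were expressed, with summed levels of 2658 to 3246 in WT_siCtrl and 1975 to 2392 in the KO groups. The sums were mostly Vim and Col1a1, and single markers went both ways. Mean Col1a1 was 777.6 in WT_siCtrl and 236.2 in KO_siCtrl, and mean Cd44 was 47.1 and 87.6. Summed levels were at most 0.856 for 6 blood markers, 0.278 for 6 endothelial markers and 1.67 for 5 epithelial markers. The defining genes Ptprc, Cdh5 and Epcam never passed 0.126. Of 7 neural and Schwann cell markers found, 1 was expressed, the tubulin gene Tubb3, and their summed level was 6.66 to 9.15 in KO_let-7g, against 1.92 to 2.75 in WT_siCtrl, 2.25 to 2.85 in KO_siCtrl and 2.76 to 3.18 in KO_siNr6a1.

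The added microRNA pairs with messenger RNAs mainly through bases 2 to 8, shown in capitals in the mature mouse sequence (RefSeq, GRCm38.p6).
mmu-let-7g-5p: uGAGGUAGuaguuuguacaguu
The word that pairs with those bases is CTACCTC, and CTACCTCA is the same word followed by A. In the longest annotated 3′ UTR of each gene (GENCODE M21, GRCm38), read on the transcript strand, CTACCTC occurred in 8 of the 36 expressed members (22.2%) and in 1065 of 10222 tested genes with a 3′ UTR (10.4%). CTACCTCA occurred in 4 of the 36 (11.1%) and in 3.63% of the tested genes. The median 3′ UTR was 1332 bases in the expressed members and 1192 in the tested genes. The sites of the 8 expressed members follow, with the matched word in capitals, because their values are given below beside the response to let-7g.
Plxnd1, chr6:115955368-115955390 (minus strand): catatcccagaacaCTACCTCAt
Sema4c, chr1:36549457-36549479 (minus strand): tgcacaggcaccagCTACCTCAg
Sema4g, chr19:45003049-45003071 (plus strand): ctcccatccctgtcCTACCTCAc
Nrp2, chr1:62798047-62798069 (plus strand): taccttgaggtgtcCTACCTCAg
Sema3f, chr9:107681785-107681807 (minus strand): aggtccagcccactCTACCTCct
Sema4b, chr7:80225383-80225405 (plus strand): tcagtggaggtcagCTACCTCtg
Ephb2, chr4:136650267-136650289 (minus strand): cgatcctcctcgctCTACCTCcc
Plxna2, chr1:194815227-194815249 (plus strand): ctgtgtctgatgttCTACCTCtt
The first 4 carry the longer word and the other 4 the shorter one. A match is a description of these letters and not a shown binding site.

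Of the 53 members, 36 passed an FPKM of 1 (or equalled it) in 3 or more libraries and are termed expressed, and 26 of these did so in all 12 libraries. They were 15 semaphorins, both neuropilins, 6 plexins, 7 ephrins and 6 Eph receptors. Ephb2, Sema6d and Plxnb1 passed this limit only through the 3 WT_siCtrl libraries, and Sema4a through these and 1 KO_let-7g library, so a difference was built into the selection of these 4. Sema6b and Epha4 reached the limit in KO libraries only, and Sema3g in 1 WT_siCtrl library beside the KO libraries. A difference in the other direction was built into the selection of these genes. The highest means over the 12 libraries were those of the neuropilin Nrp2 (66.8), the secreted semaphorin Sema3a (65.0), the plexins Plxnb2 (58.5) and Plxnd1 (42.2), the Eph receptor Epha2 (35.1), the plexin Plxna1 (32.6) and the semaphorins Sema3f (23.7) and Sema4b (21.6). Nrp2 and Sema3a differed by less than the spread between libraries of 1 group. Just inside the limit were Sema4a and Epha4, with 4 libraries at 1 or more, and Efnb3 with 5. Sema4d and Epha3, with 1 such library each, were nearest outside it.

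The 17 members that were not expressed fell into 9 with a highest library of at least 0.1 and 8 below that. The second set held Epha5, Epha6, Epha7, Epha10, Ephb1, Plxna4, Sema5b and Sema6a, most of them known from the nervous system. The first set held Efna5, Epha1, Epha8, Plxnb3, Plxnc1, Sema3b, Sema4f, Epha3 and Sema4d. Epha3, a receptor for A-type ephrins, stood at 1.03, 0.514 and 0.638 in WT_siCtrl and at most 0.115 in the 9 KO libraries. Sema4d, a ligand of Plxnb1, was low in WT_siCtrl (0.0267, 0.161 and 0.183) and KO_let-7g (0.236, 0.192 and 0.0769) and higher in KO_siCtrl (1.16, 0.716 and 0.746) and KO_siNr6a1 (0.783, 0.884 and 0.692). Both were therefore uneven between groups at levels under or near 1. Sema4f, a membrane semaphorin, had 0.32 to 0.483 in WT_siCtrl and at most 0.133 in the KO libraries. When all genes were tested without the limit, 6 of the 17 were called in KO_siCtrl against WT_siCtrl. Of all genes 7151 of 19916 were called, but these include the genes that passed the limit. The share among genes below the limit was not computed, so the count of 6 has no like background. These 6 members included Epha3 (log2 fold change -0.75, adjusted p = 0.000127), Sema4f (-0.50, adjusted p = 2.91e-05) and Sema4d (0.73, adjusted p = 0.000259). Sema4d was also lower with let-7g than in KO_siCtrl (-0.68, adjusted p = 0.000702).

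**Figure D1:**
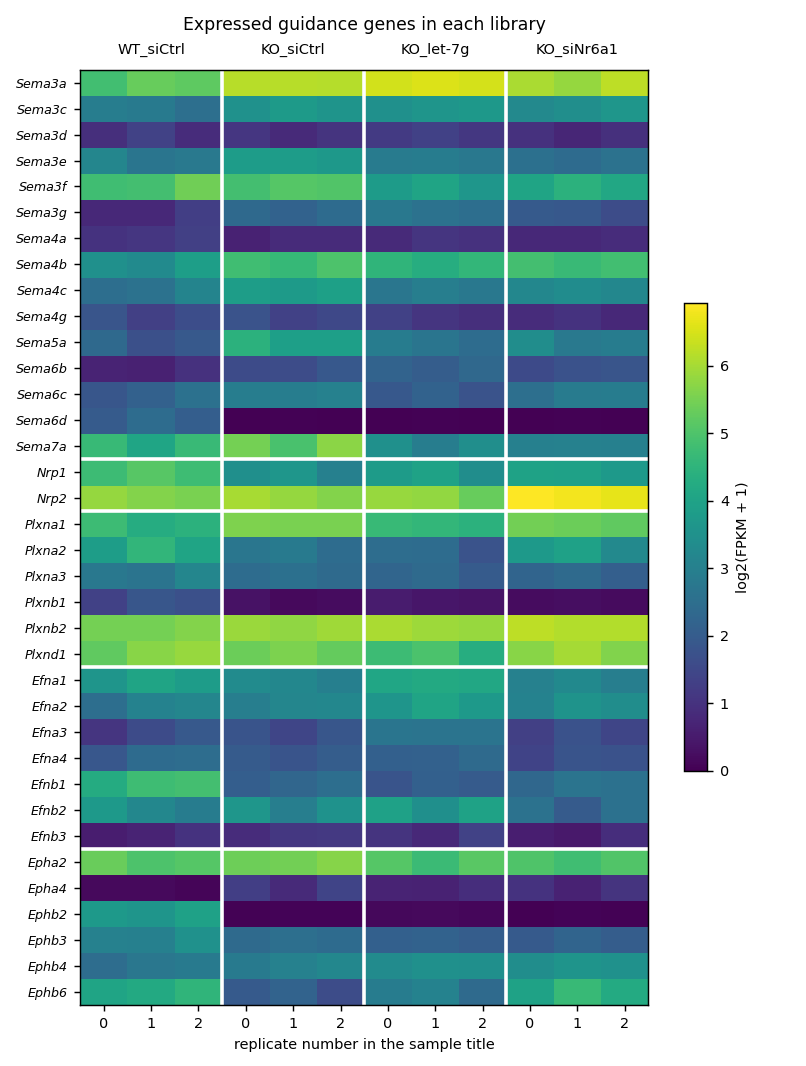
Heat map of log2(FPKM + 1) for the 36 expressed members (rows, grouped as semaphorins, neuropilins, plexins, ephrins and Eph receptors) in the 12 libraries (columns, by group and replicate number). Ephb2 and Sema6d are dark in all 9 KO libraries, and Nrp2 is brightest in the 3 KO_siNr6a1 libraries.

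The first comparison, KO_siCtrl against WT_siCtrl, addresses which genes differ in cells that lack Dicer. Semaphorins were mostly higher in KO_siCtrl, while ephrin-B1 and several receptors were lower. In all, 26 of 36 expressed members were called, 15 higher and 11 lower (72.2%), where 54.3% of the 11801 genes tested were called, 29.1% higher and 25.2% lower. The 11 lower members include the 4 that passed the limit through WT_siCtrl. The 15 higher include Sema3g, Sema6b and Epha4, whose passing rested on KO libraries. The median log2 fold change was 0.17 over the members and 0.04 over all genes tested. By 1 log2 unit or more, 7 members rose (5.42% of all genes) and 7 fell (6.94%), 12.4% of all genes in either direction. The groups did not overlap in 26 members, 15 above and 11 below, as in 57.2% of all genes (30.7% above and 26.5% below). In bulk RNA, fewer cells of a type and less RNA per cell cannot be told apart.

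Among the semaphorins, 10 of 15 rose and 2 fell. Sema5a, a membrane semaphorin with thrombospondin repeats, had the largest rise: 4.12, 2.21 and 2.84 FPKM in WT_siCtrl against 20.8, 14 and 14 in KO_siCtrl (log2 fold change 2.10, SE 0.222, adjusted p = 1.57e-05). All KO_siCtrl libraries lay far above all WT_siCtrl libraries. Sema3a, which repels axons through Nrp1 and A-type plexins and was the most abundant semaphorin, rose from 34.1 ± 5.79 to 71.1 ± 1.08 (1.05, SE 0.123, adjusted p = 3.28e-05). Of the other secreted class 3 members, Sema3g rose from 0.973 ± 0.389 to 4.03 ± 0.46 (1.36, adjusted p = 2.01e-05), Sema3e, which binds Plxnd1 without a neuropilin, from 6.49 ± 1.38 to 12.8 ± 0.681 (0.90, adjusted p = 9.83e-05) and Sema3c from 5.89 ± 0.993 to 11.3 ± 1.19 (0.84, adjusted p = 0.000264). Class 3 was not uniform, since Sema3f (32.4 ± 8.56 and 31.2 ± 2.92) and Sema3d (1.12 ± 0.41 and 1.0 ± 0.191) were not called.

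The membrane semaphorins of class 4 were divided as well. Sema4b rose from 10.9 ± 2.41 to 27.2 ± 3.5 (1.25, adjusted p = 2.59e-05) and Sema4c, a ligand of Plxnb2, from 5.8 ± 1.66 to 13.5 ± 0.941 (1.11, adjusted p = 8.47e-05). Sema4a, whose selection rests on WT_siCtrl, stood at 1.22 ± 0.244 and 0.731 ± 0.127 (-0.36, adjusted p = 0.0149), and Sema4g was not called (2.03 ± 0.54 and 1.92 ± 0.451). In class 6, Sema6b rose from 0.722 ± 0.233 to 2.27 ± 0.404 (0.93, adjusted p = 0.000141) and Sema6c from 3.67 ± 1.24 to 6.84 ± 0.379 (0.78, adjusted p = 0.00369). Their relative Sema6d, a ligand of Plxna1, went the other way: it stood at 2.97, 4.47 and 3.19 in WT_siCtrl and at 0, 0.0207 and 0.00813 in KO_siCtrl (-2.16, SE 0.113, adjusted p = 7.01e-08). Sema7a, which is anchored by a lipid and also signals through integrins, rose from 21.6 ± 5.03 to 41.7 ± 11.1 (0.91, adjusted p = 0.00432). Summed over the 20 semaphorins, FPKM was 125 to 154 in WT_siCtrl and 228 to 255 in KO_siCtrl.

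Among the receptors of semaphorins, the 2 neuropilins differed in response. Nrp1, the co-receptor for Sema3a and for VEGF-A, stood at 26.0, 34.1 and 26.4 in WT_siCtrl against 9.89, 11.4 and 7.05 in KO_siCtrl (-1.53, SE 0.185, adjusted p = 4.22e-05). Nrp2, the co-receptor favoured by Sema3f, was not called (50.1 ± 5.61 and 56.2 ± 7.74). Plxna1 rose from 21.8 ± 3.82 to 45.9 ± 1.33 (1.06, adjusted p = 1.73e-05). Plxna2 was at 13.4, 22.8 and 15.4 against 5.61, 6.09 and 4.48 (-1.49, SE 0.246, adjusted p = 0.000393), so the closely related A-type plexins moved in opposite directions. Plxnb1, the receptor of Sema4d, was at 1.54, 2.59 and 2.24 against 0.259, 0.127 and 0.179 (-1.38, SE 0.122, adjusted p = 3.82e-06). Plxnb2 rose slightly from 45.3 ± 3.03 to 57.3 ± 3.39 (0.33, adjusted p = 0.00374) and Plxna3 fell from 6.42 ± 1.42 to 4.53 ± 0.353 (-0.41, adjusted p = 0.0374). Plxnd1, the receptor of Sema3e, was not called (48.4 ± 10.6 and 41.6 ± 4.18).

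The largest fall of any member was that of Ephb2, a receptor for B-type ephrins. Its level was 12.5, 11.3 and 14.6 in WT_siCtrl and 0.0244, 0.0466 and 0.0445 in KO_siCtrl (-3.72, SE 0.0949, adjusted p = 3.5e-10), the fall of rank 46 among the 11801 genes tested. Ephb6, an Eph receptor without kinase activity, stood at 15.4, 17.6 and 22.3 against 2.87, 3.64 and 2.08 (-2.33, SE 0.228, adjusted p = 8.27e-06), and Ephb3 fell from 8.2 ± 1.78 to 4.44 ± 0.272 (-0.74, adjusted p = 0.000632). Ephb4, the usual partner of ephrin-B2, was the exception among the B-type receptors and rose from 5.48 ± 0.86 to 7.29 ± 1.0 (0.36, adjusted p = 0.0255). Both expressed A-type receptors were called higher, while Epha3, below the limit, was lower as given above. Epha4 rose from 0.103 ± 0.033 to 1.3 ± 0.461 (1.04, adjusted p = 0.000196) and the abundant Epha2 from 34.6 ± 4.64 to 44.8 ± 4.77 (0.37, adjusted p = 0.039), a call lost under 8 of 21 settings. Summed FPKM of the 5 B-type receptors was 39.7 to 53.4 in WT_siCtrl and 13.4 to 15.7 in KO_siCtrl, and that of the 9 A-type receptors was 31.7 to 41.5 and 43.3 to 52.7. The A-type sum is mostly Epha2 and restates the values of that gene.

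Of the ephrins, the ligands of these receptors, 2 of 7 were called and both were lower. Efnb1, a B-type ephrin whose loss disturbs the skull sutures, stood at 18.3, 26.5 and 27.7 in WT_siCtrl and at 3.21, 3.92 and 4.68 in KO_siCtrl (-2.34, SE 0.172, adjusted p = 9.3e-07). Efna1, a ligand of Epha2, fell from 13.3 ± 2.18 to 8.16 ± 1.14 (-0.64, adjusted p = 0.00172). The ephrins Efna2, Efna3, Efna4, Efnb2 and Efnb3 were not called, and their group means lay between 0.704 and 9.63.

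Of these calls, 4 were lost under some settings. Epha2 lost its call without WT_siCtrl replicate 1 or 2 or KO_siCtrl replicate 1 or 2 and in 8 of 21 settings in all (highest adjusted p = 0.137). Ephb4 lost it without WT_siCtrl replicate 0 or KO_siCtrl replicate 1 or 2 (5 settings, 0.1), Plxna3 without WT_siCtrl replicate 2 or KO_siCtrl replicate 0 or 2 (6 settings, 0.142), and Sema4a without WT_siCtrl replicate 2 or KO_siCtrl replicate 0 (4 settings, 0.0933). With 0.1 added in place of 1, the log2 fold changes of genes near 0 were larger: -6.54 for Ephb2, -5.04 for Sema6d, -2.94 for Plxnb1, 2.74 for Epha4, 1.55 for Sema6b and -0.67 for Sema4a. With the replicate number as a block, Efnb3 was called in addition (0.30, adjusted p = 0.0437).

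**Figure D2:**
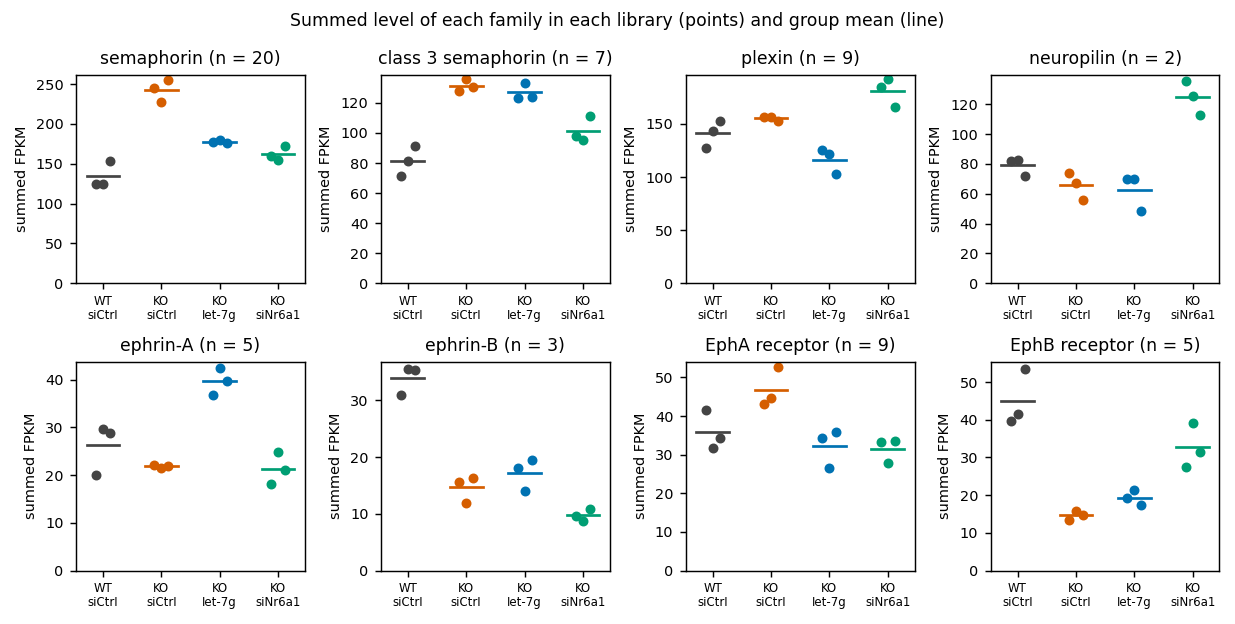
Summed FPKM of the members of each family (y axis, from 0) in the 3 libraries of each group (points) with the group mean (line). The semaphorin sum is highest in KO_siCtrl (228 to 255), the ephrin-A sum in KO_let-7g (36.9 to 42.5) and the neuropilin sum in KO_siNr6a1 (113 to 136), while the EphB sum is lowest in KO_siCtrl (13.4 to 15.7).

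The second comparison, KO_let-7g against KO_siCtrl, addresses what a supplied let-7 microRNA changes in cells that cannot make their own. Several semaphorins fell and 3 A-type ephrins rose. Of 36 expressed members 18 were called, 7 higher and 11 lower (50%), against 45.6% of all genes tested, 27.5% higher and 18.2% lower. The 11 lower include Epha4, whose passing rested on KO_siCtrl and KO_siNr6a1 libraries. The split depended on scaling: 4 higher and 15 lower under quantile scaling and 5 and 13 by median of ratios. Without KO_let-7g replicate 1 it was 4 higher and 9 lower. The median log2 fold change was -0.01 over the members and 0.08 over all genes. Falls of 1 log2 unit or more numbered 5, all of them semaphorins (2.63% of all genes), and no member rose by as much (3.84% of all genes, 6.47% in either direction). The groups did not overlap in 24 members, 12 above and 12 below, as in 55.4% of all genes (33% above and 22.4% below).

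Sema7a showed the largest fall, from 43.3, 29.9 and 51.8 FPKM in KO_siCtrl to 10.0, 6.7 and 9.74 in KO_let-7g (-2.10, SE 0.217, adjusted p = 2.72e-05), rank 28 among falls of the 11801 genes. All KO_let-7g libraries were also below the lowest WT_siCtrl library (15.8). Sema5a fell to 6.57, 5.51 and 4.42 (-1.40, SE 0.222, adjusted p = 0.000448) and Sema3f, which had not differed beyond its spread between the genotypes, from 27.9, 33.4 and 32.3 to 13.1, 15.5 and 11.4 (-1.17, SE 0.175, adjusted p = 0.000298). Sema4c fell from 13.4, 12.6 and 14.5 to 5.63, 6.8 and 5.79 (-1.03, SE 0.149, adjusted p = 0.000235) and Sema6c from 6.6, 6.64 and 7.27 to 2.74, 3.5 and 2.4 (-1.02, SE 0.181, adjusted p = 0.00089). In none of these 5 genes did the groups overlap. Sema3e fell to 6.27 ± 0.343 (-0.93, adjusted p = 0.000127) and Sema4g to 1.17 ± 0.319 (-0.43, adjusted p = 0.0467). The semaphorins were not lowered as a whole, since Sema3a rose to 89.6 ± 3.26 (0.33, adjusted p = 0.0486) and Sema6b to 3.6 ± 0.463 (0.49, adjusted p = 0.0107), and 6 were not called, among them Sema3c at 11.1 ± 0.873 and Sema4b at 21.3 ± 2.24. Sema6d stayed near 0 in KO_let-7g (0, 0.0366 and 0).

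Of the plexins, Plxna1 fell from 47.4, 45.4 and 44.9 to 24.5, 23.1 and 20.8 (-0.98, SE 0.114, adjusted p = 5.36e-05), next to a WT_siCtrl mean of 21.8. Plxnd1 fell from 41.6 ± 4.18 to 25.0 ± 5.57 (-0.73, adjusted p = 0.0084). The other 4 expressed plexins and both neuropilins were not called, with Nrp2 at 50.2 ± 9.82 and Nrp1 at 12.4 ± 2.69.

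Of the 5 A-type ephrins, 3 rose in KO_let-7g. Efna1 went from 9.21, 8.3 and 6.95 to 16.2, 17.4 and 16.9 (0.97, SE 0.131, adjusted p = 0.000147) and Efna3 from 2.45, 1.75 and 2.6 to 5.47, 5.33 and 5.34 (0.98, SE 0.199, adjusted p = 0.0022). Efna2 rose from 7.71 ± 0.799 to 13.1 ± 2.27 (0.68, adjusted p = 0.0126), and Efna4 was at 3.67 ± 0.484 against 2.87 ± 0.323 without being called. None of the 3 B-type ephrins was called, and Efnb1 was at 2.95 ± 0.414. Summed FPKM of the 5 A-type ephrins was 21.6 to 22.2 in KO_siCtrl and 36.9 to 42.5 in KO_let-7g. The summed neural markers were also higher in these libraries (6.66 to 9.15 against 2.25 to 2.85, most of it Tubb3), and their part in the result was not tested.

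Among the Eph receptors, Epha2, to which Efna1 binds, fell to 31.0 ± 4.93 (-0.52, adjusted p = 0.00871) and Epha4 to 0.682 ± 0.163 (-0.43, adjusted p = 0.0409), the only call among the 18 whose groups overlapped. Epha4 passed the FPKM limit through 2 KO_siCtrl and 2 KO_siNr6a1 libraries and 0 of KO_let-7g. A fall in KO_let-7g was therefore partly built into its selection. Ephb6 rose from 2.86 ± 0.782 to 6.08 ± 1.64 (0.87, adjusted p = 0.00937) and Ephb4 to 9.74 ± 0.476 (0.38, adjusted p = 0.0227). Ephb2 stayed near 0 at 0.115, 0.133 and 0.0944 and was not called.

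Set beside the let-7 words, the 8 expressed members that carry CTACCTC were 4 that fell (Plxnd1, Sema4c, Sema4g and Sema3f) and 4 that were not called (Nrp2, Sema4b, Ephb2 and Plxna2), and none rose. CTACCTC was thus in the 3′ UTR of 4 of the 11 members that fell, 4 of the 18 not called and 0 of the 7 that rose. Their median 3′ UTRs were 1264, 1870.5 and 916 bases in the same order. Shares among all genes that fell, rose or were not called were not computed, so no pattern can be read from these counts. Ephb2, with a mean of 0.0385 in KO_siCtrl, was too low to show a fall. The call of Sema4g was lost in 11 of 20 settings. Of the carriers that fell, Sema3f, Sema4c and Sema4g also fell in KO_siNr6a1, where Plxnd1 was not called. Whether pairing with let-7g had a part in these falls was not tested. Sema7a, Sema5a, Sema6c, Sema3e, Plxna1, Epha2 and Epha4 fell and had no CTACCTC in the 3′ UTR examined.

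Of these calls, 6 were lost under some settings. Epha4 lost its call in 9 of 20 settings (highest adjusted p = 0.151), among them the omission of WT_siCtrl replicate 1, KO_siCtrl replicate 0 or 2, KO_let-7g replicate 0 or 1 or KO_siNr6a1 replicate 2. Sema3a lost it in 13 of 21 (0.125), among them the omission of any KO_siCtrl or KO_let-7g library, of WT_siCtrl replicate 2 or of KO_siNr6a1 replicate 0. For Sema4g it was 11 of 20 (0.172), with KO_siCtrl replicate 0 or 2, KO_let-7g replicate 1 or 2, WT_siCtrl replicate 2 or any KO_siNr6a1 library left out. Ephb4 lost it in 6 settings (0.0939), including those without KO_siCtrl replicate 0 or 1 or KO_let-7g replicate 1 or 2, Efna2 without KO_let-7g replicate 1 (0.0543) and Sema6b under quantile scaling (0.0601). With 0.1 added in place of 1 the log2 fold changes of Epha4 and Sema4g were -0.80 and -0.68. With the replicate block, 4 further members were called: Efnb1 (-0.32, adjusted p = 0.0126), Plxna2 (-0.45, adjusted p = 0.029), Sema4b (-0.34, adjusted p = 0.00674) and Nrp1 (0.37, adjusted p = 0.0126).

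The third comparison, KO_siNr6a1 against KO_siCtrl, addresses what follows knockdown of the nuclear receptor Nr6a1 in the Dicer -/- cells. Ephb6, both neuropilins and Plxna2 were higher and a set of semaphorins was lower. Here 15 of 36 expressed members were called, 6 higher and 9 lower (41.7%), against 29.4% of all genes tested, 13.2% higher and 16.3% lower. Without KO_siNr6a1 replicate 1, 3 were higher and 9 lower. The median log2 fold change was -0.15 over the members and -0.06 over all genes. By 1 log2 unit or more 1 member rose and 3 fell, as did 1.63% and 1% of all genes (2.63% together). The groups did not overlap in 20 members, 7 above and 13 below, as in 46.1% of all genes (19.2% above and 26.9% below). These libraries are compared with the same KO_siCtrl libraries as KO_let-7g, so the values of both comparisons are not independent.

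Ephb6 had the largest rise, from 2.87, 3.64 and 2.08 FPKM to 14.9, 24.4 and 17.9 (2.37, SE 0.228, adjusted p = 5.56e-05), rank 26 among rises of the 11801 genes tested and next to 18.4 ± 3.51 in WT_siCtrl. Ephb4 rose to 10.4 ± 0.758 (0.46, adjusted p = 0.0143) and Epha2 fell to 30.1 ± 2.96 (-0.56, adjusted p = 0.0106). Ephb2 (0.0108, 0.0428 and 0.0343) stayed near 0, and Epha4 (0.882 ± 0.265) and Ephb3 (3.23 ± 0.446) were not called. Of the ephrins only Efnb2 was called: it fell from 11.6, 6.81 and 10.5 to 5.15, 2.94 and 4.99 (-0.99, SE 0.26, adjusted p = 0.0153), with the lowest KO_siCtrl library above the highest KO_siNr6a1 library. Efnb1 remained low at 4.79 ± 0.755, against 24.2 ± 5.13 in WT_siCtrl.

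Nrp2 rose from 64.3, 55.6 and 48.8 to 121, 111 and 100.2 (0.97, SE 0.151, adjusted p = 0.000899), levels above those of every other member in these libraries. Nrp1 rose from 9.43 ± 2.19 to 14 ± 1.31 (0.54, adjusted p = 0.0481). Plxna2, the plexin that was lower in KO_siCtrl than in WT_siCtrl, went from 5.61, 6.09 and 4.48 to 12.2, 14.6 and 8.59 (0.98, SE 0.246, adjusted p = 0.0121), and Plxnb2 rose to 70.9 ± 2.69 (0.30, adjusted p = 0.0139). Plxna1 (40.1 ± 3.03) and Plxnd1 (53.9 ± 7.97) were not called.

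All 7 semaphorins called were lower. Sema7a fell to 7.06, 7.2 and 7.12 (-2.36, SE 0.217, adjusted p = 4.57e-05), rank 14 among falls and below every WT_siCtrl library. Sema3e fell from 13.2, 13.2 and 12 to 4.91, 4.32 and 5.14 (-1.25, SE 0.122, adjusted p = 6e-05) and Sema5a to 9.57, 5.97 and 6.56 (-1.05, SE 0.222, adjusted p = 0.00513). For both genes the KO_siNr6a1 libraries lay wholly below those of KO_siCtrl. Sema3f fell to 15.7, 21.1 and 16.8 (-0.78, SE 0.175, adjusted p = 0.00686), Sema4g to 0.866 ± 0.139 (-0.64, adjusted p = 0.0124), Sema4c to 8.58 ± 0.685 (-0.59, adjusted p = 0.0121) and Sema3g to 2.55 ± 0.444 (-0.51, adjusted p = 0.0257). Sema3a was not called (65.3 ± 9.14), nor were Sema3c, Sema3d, Sema4a, Sema4b, Sema6b, Sema6c and Sema6d.

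Nr6a1 belongs to the nuclear receptors, many of which bind DNA words built on AGGTCA. In RefSeq promoters (GRCm38.p6, 300 bases around a gene start, both strands), AGGTCA occurred in 8 of 61 promoters of 47 members and in 16.3% of all 32851 promoters. The longer word TCAAGGTCA, which contains AGGTCA, occurred in no promoter of a member and in 0.423% of all promoters. Among the members with AGGTCA, Plxnd1, Sema4b and Sema6b were not called in KO_siNr6a1 against KO_siCtrl, and Sema4d was not expressed. The share of called genes among all genes with the word was not computed. Of the members called in this comparison, Epha2 and Sema5a (lower) and Nrp1 and Plxnb2 (higher) had AGGTCA in this window. The promoter of Sema5a, the one of these with the largest change, is shown with the word in capitals (chr15:32244563-32244862, plus strand).
Sema5a: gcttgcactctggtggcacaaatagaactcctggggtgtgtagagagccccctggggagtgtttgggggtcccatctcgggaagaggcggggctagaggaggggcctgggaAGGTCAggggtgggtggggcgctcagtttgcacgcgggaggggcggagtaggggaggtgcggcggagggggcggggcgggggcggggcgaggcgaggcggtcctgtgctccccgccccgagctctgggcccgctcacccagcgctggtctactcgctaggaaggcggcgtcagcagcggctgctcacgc

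In this comparison 6 calls were lost under some settings. Nrp1 lost its call in 10 of 21 settings (highest adjusted p = 0.169), among them the omission of WT_siCtrl replicate 0 or 2, KO_siCtrl replicate 0 or 2, KO_let-7g replicate 0 or any KO_siNr6a1 library. Sema3g lost it in 5 (0.103), including those without KO_siCtrl replicate 0 or 2 or KO_siNr6a1 replicate 2, and Efnb2 in 3 (0.062), without KO_siCtrl replicate 0 or 2 or KO_siNr6a1 replicate 1. Ephb4 lost it without KO_siCtrl replicate 0 or KO_siNr6a1 replicate 1 (0.0574), Plxnb2 without KO_siCtrl replicate 1 or KO_siNr6a1 replicate 0 (0.0557) and Plxna2 without KO_siNr6a1 replicate 1 (0.0511). With library weights the log2 fold change of Plxna2 was 0.65, and with 0.1 added in place of 1 that of Sema4g was -1.05. With the replicate block, Efnb3 (-0.40, adjusted p = 0.0189) and Ephb3 (-0.37, adjusted p = 0.0413) were called in addition.

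**Figure D3:**
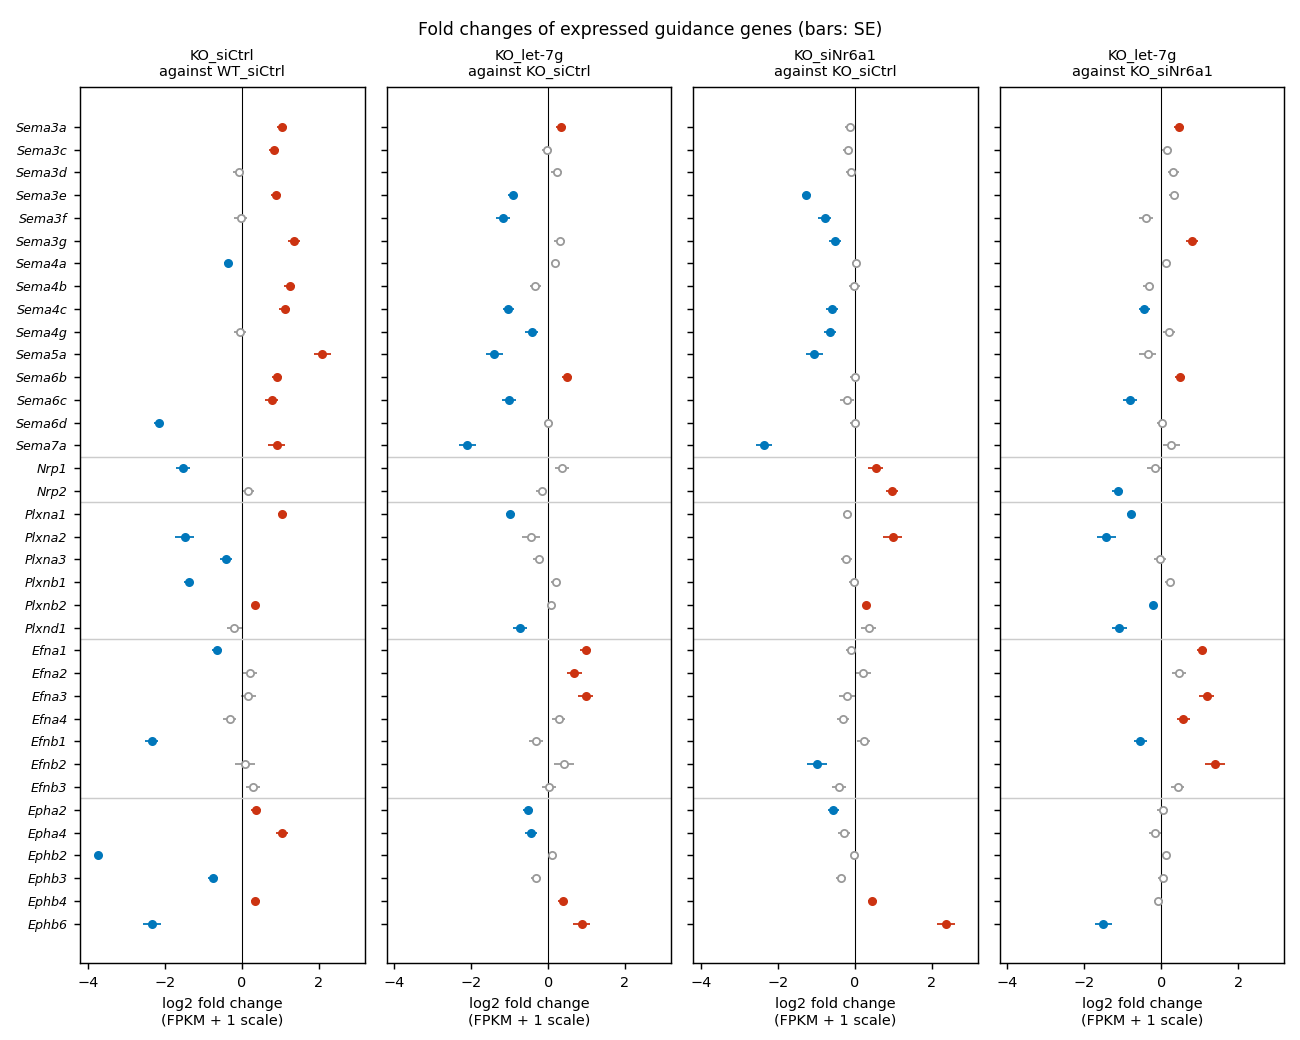
Log2 fold change on the log2(FPKM + 1) scale (x axis, bars give the SE) of the 36 expressed members (rows) in the 4 comparisons (panels); red points were called higher, blue points lower and open grey points were not called. Ephb2 lies farthest left in KO_siCtrl against WT_siCtrl (-3.72) and Ephb6 farthest right in KO_siNr6a1 against KO_siCtrl (2.37).

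The direct comparison of KO_let-7g with KO_siNr6a1 tests where the 2 treatments differ. Relative to KO_siNr6a1, 4 of 7 ephrins were higher and 1 lower in KO_let-7g, and 1 of 2 neuropilins and 4 of 6 plexins were lower. Of 36 expressed members 16 were called, 7 higher and 9 lower (44.4%), against 40.9% of all genes tested, 27.6% higher and 13.3% lower. The median log2 fold change of all genes was 0.12 here and -0.01 after median of ratios scaling, which gave 6 members higher and 11 lower, and quantile scaling gave 5 and 11. With library weights 12 were higher and 12 lower. Over the members the median was 0.04. By 1 log2 unit or more 3 members were higher and 4 lower, as were 2.18% and 2.05% of all genes (4.23% together). The groups did not overlap in 23 members, 12 above and 11 below, as in 55.4% of all genes (37.5% above and 17.9% below).

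Ephb6 was lower in KO_let-7g, at 6.5, 7.48 and 4.28 against 14.9, 24.4 and 17.9 (-1.50, SE 0.228, adjusted p = 0.000474). Plxna2 stood at 4.53, 4.42 and 2.39 against 12.2, 14.6 and 8.59 (-1.43, SE 0.246, adjusted p = 0.00103), Nrp2 at 56.7, 55.1 and 38.9 against 121, 111 and 100.2 (-1.14, SE 0.151, adjusted p = 0.000207) and Plxnd1 at 26.0, 30.0 and 19.0 against 50.9, 62.9 and 47.8 (-1.09, SE 0.189, adjusted p = 0.00105). None of these 4 receptor genes overlapped between the groups. Plxna1 (-0.79, adjusted p = 0.000332), Sema6c (-0.83, adjusted p = 0.00409), Efnb1 (-0.55, adjusted p = 0.0247), Sema4c (-0.44, adjusted p = 0.0353) and Plxnb2 (-0.23, adjusted p = 0.038) were also lower.

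The largest value in the other direction was that of Efnb2, at 14.5, 9.89 and 15.0 in KO_let-7g against 5.15, 2.94 and 4.99 in KO_siNr6a1 (1.40, SE 0.26, adjusted p = 0.00157). Efna3 (5.47, 5.33 and 5.34 against 1.47, 2.34 and 1.71) was higher by 1.18 (SE 0.199, adjusted p = 0.00091) and Efna1 (16.2, 17.4 and 16.9 against 7.3, 8.68 and 6.86) by 1.06 (SE 0.131, adjusted p = 0.000136). Sema3g (5.79, 5.08 and 4.66 against 2.88, 2.72 and 2.05) was higher by 0.80 (SE 0.15, adjusted p = 0.00163). In these 4 genes the groups did not overlap, while Sema3a (0.46, adjusted p = 0.0122), Sema6b (0.49, adjusted p = 0.013) and Efna4 (0.58, adjusted p = 0.0167) showed smaller differences in the same direction. Of the semaphorins, 2 fell by more than 1 log2 unit in both treatments and were not called between them: Sema7a differed by 0.26 (adjusted p = 0.375) and Sema5a by -0.35 (adjusted p = 0.227, and 0.0138 with the replicate block).

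Calls lost under some settings were those of Plxnb2 (7 of 21 settings, highest adjusted p = 0.13), Sema4c (6, 0.109), Efnb1 (5, 0.0881), Efna4 (3, 0.0929), Sema6b (3, 0.109) and Sema3a (2, 0.0648). For Plxnb2 they included the omission of KO_siCtrl replicate 0, KO_let-7g replicate 1 or 2 or any KO_siNr6a1 library, for Sema4c KO_let-7g replicate 0 or 2 or any KO_siNr6a1 library, and for Efnb1 KO_let-7g replicate 0 or 2 or KO_siNr6a1 replicate 1 or 2. Efna4 and Sema6b lost theirs without KO_let-7g replicate 2 or KO_siNr6a1 replicate 0, and Sema3a without KO_siNr6a1 replicate 1. By median of ratios Plxnb2 was at -0.39 and Sema3a at 0.30 (0.30 also with library weights), and by quantile scaling Efna4 was at 0.37 and Sema6b at 0.29. With the replicate block Efna2 (0.45, adjusted p = 0.00474), Efnb3 (0.42, adjusted p = 0.0124), Sema3e (0.33, adjusted p = 0.0289) and Sema4b (-0.32, adjusted p = 0.00874) were called in addition to Sema5a.

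**Figure D4:**
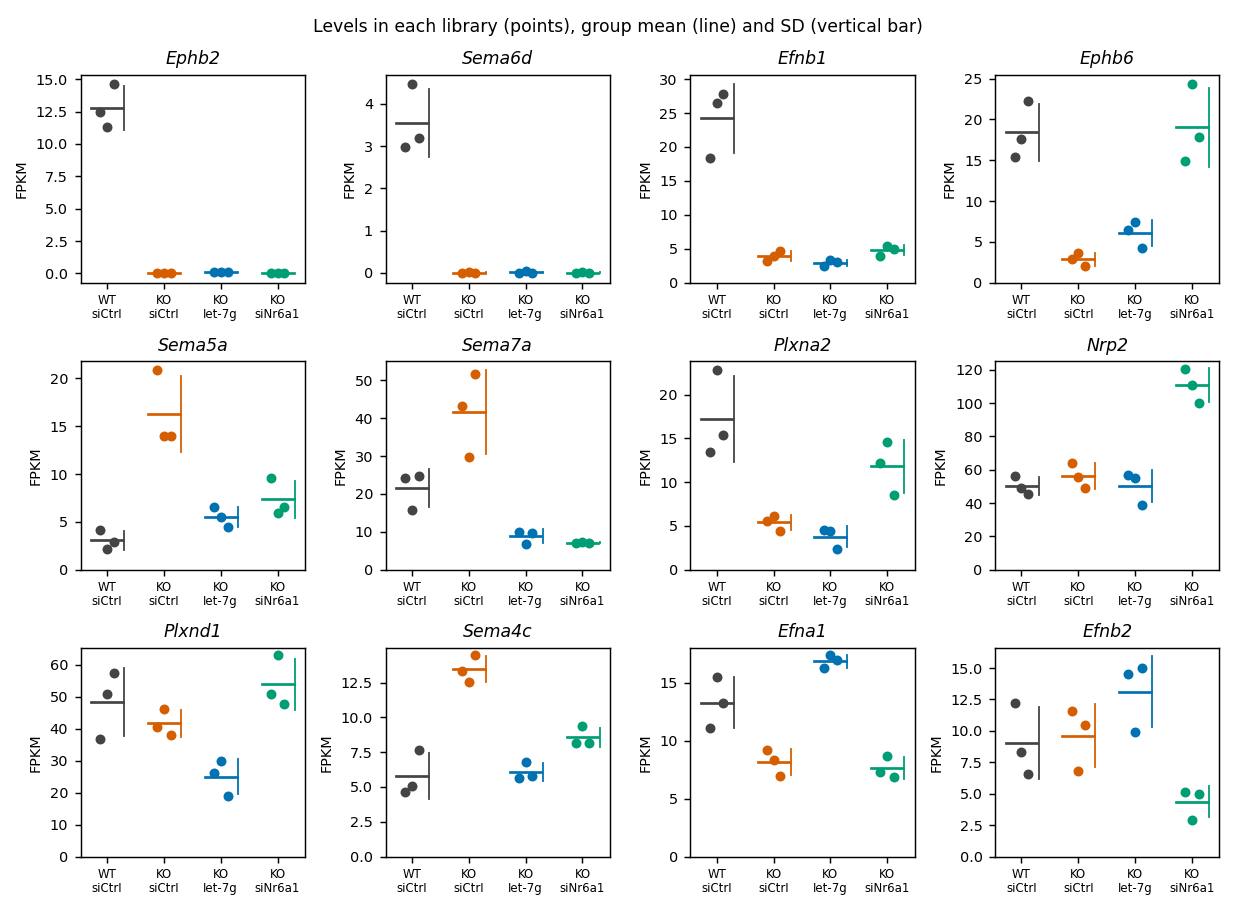
FPKM (y axis) of 12 members in the 3 libraries of each group (points), with the group mean (horizontal line) and SD (vertical bar). Ephb2 and Sema6d are near 0 in all KO groups, Ephb6 lies between 14.9 and 24.4 in KO_siNr6a1 and between 15.4 and 22.3 in WT_siCtrl, and Sema7a is at most 10.0 in both treated groups.

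Of the expressed members, 4 share exon sequence with a gene annotated on the opposite strand (GENCODE M21): Efna3, Efna4, Plxna1 and Plxnb1. The sources used here do not give the strand setting of the counting, and reads of these pairs cannot be told apart.

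Genes that act with these ligands and receptors were described from 3 lists. Of 33 tested partners and effectors of semaphorins, plexins and neuropilins, 6 rose and 13 fell in KO_siCtrl against WT_siCtrl (57.6%, against the 54.3% of all genes). The VEGF receptor Flt1 rose from 0.218 ± 0.0326 to 5.94 ± 0.347 (2.51, adjusted p = 3.62e-08), the growth factor Vegfc, which binds Nrp2, from 2.66 ± 0.57 to 8.92 ± 0.365 (1.45, adjusted p = 2.85e-06) and the receptor kinase Met, a partner of B-type plexins, from 8.68 ± 3.52 to 28.9 ± 2.55 (1.68, adjusted p = 4.83e-05). Flt1 passed the FPKM limit only through KO libraries, so a rise was built into its selection. Dpysl3 and L1cam passed the FPKM limit only through WT_siCtrl, so a fall was built into their selection. Dpysl3, a cytosolic phosphoprotein of the family that relays Sema3a signals, was at 0.116 ± 0.0458 against 88.4 ± 8.59 in WT_siCtrl (-6.32, adjusted p = 8.15e-12), L1cam, an adhesion protein that associates with Nrp1, was at 0.226 ± 0.0268 against 1.54 ± 0.429 (-1.04, adjusted p = 2.77e-05). The oxidoreductase gene Mical1 fell to 9.81 ± 0.257 from 21 ± 4.11 (-1.01, adjusted p = 5.03e-05). In KO_let-7g against KO_siCtrl 7 rose and 7 fell (42.4%, all genes 45.6%). The cofilin kinase gene Limk2 fell from 24.1 ± 2.28 to 12.4 ± 0.206 (-0.91, adjusted p = 2.03e-05), and Arhgef11 rose from 9.4 ± 0.391 to 17.75 ± 0.231 (0.85, adjusted p = 1.91e-05). In KO_siNr6a1 against KO_siCtrl 5 rose and 4 fell (27.3%, all genes 29.4%), with Farp1, a Rac activator, at 48.1 ± 2.85 against 31.1 ± 2.22 (0.61, adjusted p = 0.000517). Farp1 fell in KO_let-7g (20.7 ± 1.42; -0.56, adjusted p = 0.000392), and the treatments differed by -1.18 (adjusted p = 9.76e-06), where 7 of the 33 were higher and 5 lower in KO_let-7g (36.4%, all genes 40.9%).

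Of 25 tested partners and effectors of Eph receptors and ephrins, 8 rose and 6 fell in KO_siCtrl against WT_siCtrl (56%, all genes 54.3%). The small GTPase gene Rhoa fell from 244 ± 35.2 to 101.7 ± 7.45 (-1.25, adjusted p = 1.45e-06) and the kinase gene Pak1 from 14.8 ± 1.89 to 5.9 ± 0.739 (-1.2, adjusted p = 1.53e-05), while the phosphatase gene Acp1 rose from 14.6 ± 1.04 to 34.9 ± 0.968 (1.2, adjusted p = 1.13e-06) and the kinase gene Src from 15.5 ± 2.2 to 33.0 ± 5.91 (1.04, adjusted p = 7.06e-05). In KO_let-7g against KO_siCtrl 5 rose and 9 fell (56%, all genes 45.6%), and in KO_siNr6a1 against KO_siCtrl 4 rose and 3 fell (28%, all genes 29.4%). The genes described next are among those that rose, and values of those that fell are not given for these comparisons. From 107.7 ± 5.8 in KO_siCtrl, the GTPase gene Rac1 rose to 240.0 ± 14.6 with let-7g (1.15, adjusted p = 7.03e-06) and to 251 ± 8.84 with the Nr6a1 siRNA (1.21, adjusted p = 2.55e-05). Rhoa rose to 168 ± 1.47 (0.72, adjusted p = 0.000142) and 173 ± 3.06 (0.76, adjusted p = 0.000264) in the same order. Sdcbp, a PDZ protein that binds B-type ephrins, rose from 116 ± 6.8 to 189.7 ± 7.99 (0.70, adjusted p = 7.44e-05) and 194 ± 6.52 (0.74, adjusted p = 0.000166). Between the treatments 6 of the 25 were lower in KO_let-7g and none higher (24%, all genes 40.9%), with Kalrn at 2.77 ± 0.399 against 4.2 ± 0.0368 (-0.47, adjusted p = 0.00303).

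Of the other guidance ligands and receptors, 10 were tested, and in KO_siCtrl against WT_siCtrl 6 were called higher and 4 lower (all 10, against 54.3% of all genes). Netrin 1, Ntn1, rose from 3.34 ± 0.633 to 38.4 ± 3.71 (3.19, adjusted p = 1.59e-08). The receptor gene Neo1 fell from 42.9 ± 3.24 to 20.4 ± 1.64 (-1.03, adjusted p = 4.23e-06), and Slit3, a ligand of Robo receptors, was at 2.87 ± 0.209 and 0.436 ± 0.211 (-1.44, adjusted p = 1.15e-06). Slit3 too passed the limit only through WT_siCtrl. In KO_let-7g against KO_siCtrl 1 rose and 5 fell (60%, all genes 45.6%): Ntn1 fell to 18.8 ± 2.67 (-1, adjusted p = 0.000151), the membrane protein gene Rgmb from 17.7 ± 1.19 to 9.49 ± 1.01 (-0.84, adjusted p = 0.000308), and Ntn4 rose from 0.786 ± 0.332 to 2.72 ± 0.614 (1.06, adjusted p = 0.000243). In KO_siNr6a1 against KO_siCtrl 1 rose and 3 fell (40%, all genes 29.4%), with Rgmb at 10.2 ± 1.18 (-0.74, adjusted p = 0.00143) and Neo1 at 28.2 ± 1.71 (0.45, adjusted p = 0.00439). Between the treatments 1 was higher and 4 lower in KO_let-7g (50%, all genes 40.9%), with Ntn1 at 18.8 ± 2.67 against 39.7 ± 3.46 (-1.05, adjusted p = 0.000179).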

How the data were processed

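RNA was measured in 12 libraries by sequencing. The deposited table gives FPKM per gene, which the authors made with TopHat 1.2.0 and Cufflinks 1.0.3 on the mouse build mm9, per the submitters' processing notes; the annotation and the use of strand are not given in the sources used here. FPKM depends on the assumed transcript length and on the total of each library, so a change in a few abundant genes shifts all others. The 11801 of 21881 genes that passed an FPKM of 1, or equalled it, in 3 or more libraries were tested with limma 3.58.1 in R 4.3.3 on log2(FPKM + 1), with 1 coefficient per group over the 12 libraries, a mean-variance trend and a two-sided moderated test, and p-values were adjusted by Benjamini-Hochberg over all genes tested. The procedure was tested on simulated data with independent libraries. That test does not cover the shared deviation of same-numbered libraries given below. Levels for each library are named for the up to 8 called members with the largest change in each comparison, and up to 6 called genes with the smallest adjusted p could be named from each pathway list. The members and lists were chosen with earlier results of these data known. Alternatives were another pseudocount, other filters, 3 scalings, fits on 2 groups only, library weights, a replicate block and leaving out each library. Same-numbered libraries deviated together in all 12 pairs of groups and numbers (correlations of 0.127 to 0.465, limit 0.1). No label states that a shared number pairs them. The reported fit did not use this pairing, so its SEs, p-values and calls leave it out. The replicate block was run only as an alternative. No pair of libraries had identical values. Sites were searched in GENCODE M21 (GRCm38), a later build than that of the table, which gives no coordinates. Relative depth came from ratios between libraries of the values of genes with FPKM under 0.3; since total reads are unknown, no counting intervals are given.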

Additional observations from a re-analysis of the deposited data

Results flagged for a closer look

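For 3 members, all KO_let-7g libraries lay on one side of the KO_siCtrl libraries and all KO_siNr6a1 libraries on the other (8.33% of the 36 expressed members, against 5.76% of all genes tested). Plxnd1 was below KO_siCtrl in KO_let-7g and above it in KO_siNr6a1, and the treatments differed by -1.09 (log2, adjusted p = 0.00105). The Nr6a1 siRNA alone gave no call for Plxnd1 (adjusted p = 0.178). Sema3g was above KO_siCtrl in KO_let-7g and below it in KO_siNr6a1, with a difference of 0.80 (adjusted p = 0.00163). The let-7g duplex alone gave no call for Sema3g (adjusted p = 0.13). Efna4, in the same arrangement as Sema3g, differed by 0.58 (adjusted p = 0.0167), although neither treatment was called against KO_siCtrl. The differences come from the direct comparison of the treatments, which uses the same libraries that set these genes apart and is no independent test of them.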

How the results depend on the processing

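Of 75 fold changes of called members, 53 kept their call in every setting that tested them (20 or 21), 22 lost it in at least 1 and 0 changed direction. The number of all genes called in KO_siNr6a1 against KO_siCtrl was 3474, 5248 with the replicate block and 5528 with library weights. With the replicate block the members called numbered 27, 22, 17 and 21 of 36 in the 4 comparisons, in the order of the report, and no member lost its call. Of all 11801 genes tested, 7684, 6878, 5248 and 6461 were called with the block in the same order, so the background rose as well. Leaving out 1 library gave 23 to 26, 13 to 18, 11 to 15 and 11 to 18 members called. Of all genes called, the share that was higher in KO_siCtrl against WT_siCtrl was 53.6%, and 45% under upper quartile scaling. The share that was higher in KO_let-7g against KO_siCtrl was 60.2%, 50.2% under quantile scaling and 49.3% by median of ratios. In KO_siNr6a1 against KO_siCtrl it was 44.8% and 56.3% by median of ratios, and in KO_let-7g against KO_siNr6a1 it was 67.6%, 51.8% and 45.1%. Total reads are unknown, so genes near 0, such as Ephb2 and Sema6d in the KO groups, have levels that are not resolved further.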
